A study of Mus musculus with 12 samples.

Results

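The genes described here are the 4 opioid receptor genes Oprm1, Oprd1, Oprk1 and Oprl1, the cannabinoid receptor gene Cnr1, and 4 genes for enzymes that make or break down endocannabinoids, Faah, Mgll, Dagla and Daglb. They were taken by symbol from the count files, and all 9 were found among the 44345 genes listed there. Open chromatin at the same genes was read from the 2 pooled peak lists, as regions inside a gene or within 2 kb of either end. These genes had 73 of the 161788 merged regions in the MS275 list and 93 of the 177906 in the vehicle list.

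Opioid receptors and the CB1 receptor encoded by Cnr1 couple to inhibitory G proteins of the Gi/o class. Once active, they close voltage-gated calcium channels, open inward rectifier potassium channels and reduce transmitter release. In dorsal root ganglia, which hold the cell bodies of sensory neurons, several of these receptors are made by nociceptors, the neurons that report damage, and are sites of action of analgesic drugs. Endocannabinoids are lipids made on demand: Dagla and Daglb encode lipases that form 2-arachidonoylglycerol, Mgll encodes the main lipase that breaks it down, and Faah encodes the hydrolase of anandamide.

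The ganglia (L4 to L6) came from C57BL/6 mice aged 6 to 8 weeks, 24 h after a dorsal column axotomy (DCA), a cut of the spinal tract that carries the central axons of these neurons. Treated mice had DCA and MS275 (also called entinostat), which blocks class I histone deacetylases. Each intraperitoneal dose was 12 mg/kg, the first given with the injury and the second 2 h before collection. The others had DCA and the vehicle of Tween80, PEG300 and DMSO on the same schedule. All groups carried the injury, so no value here describes uninjured ganglia. RNA was sequenced in 3 MS275 and 3 vehicle libraries, each from a pool of 2 mice, and ATAC-seq, which marks DNA open to a transposase, was done in 3 mice per treatment.

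RNA libraries held 34992533 to 60370523 reads assigned to genes. Levels below are CPM, counts scaled to each library's normalised size. As a check of the labelled tissue, 7 pan-neuronal genes summed to 9866, 10161 and 10635 CPM in MS275 replicates 1, 2 and 3. In vehicle replicates 1, 2 and 3 they summed to 9415, 9637 and 9713 CPM. By the test described below 1 of the 7 (Elavl4) was higher, and 5 had an unadjusted p under 0.05. Log2 fold changes of the 7 ran from 0.03 to 0.22, with a median of 0.13. MS275 replicate 1 stood apart in transcripts of other tissues. Its summed level of 10 skeletal muscle genes was 666 CPM, against 97.6 and 101 CPM in MS275 replicates 2 and 3 and 7.45 to 59.4 CPM in the vehicle libraries, and its sum of 5 neutrophil genes was 229 CPM against 34.6 to 64.8 CPM in the 5 other libraries. All 10 muscle genes, 2 of 5 adipocyte and 3 of 5 endothelial genes were higher with MS275, the endothelial sum being 110 to 132 CPM with MS275 and 93.2 to 104 CPM with vehicle. Of 4 satellite glia genes Glul was higher (0.29) and Fabp7 lower (-0.54). Of 2 tested genes of central nervous system glia Aqp4 was higher (0.50) and Gfap was not called (-0.88). Gfap was at 16.8, 4.78 and 3.31 CPM in vehicle replicates 1, 2 and 3, and at 3.30 to 5.16 CPM with MS275. The part of these cells in the values below was not tested. A muscle covariate was fitted, but the muscle sum was higher in every MS275 library than in any vehicle library. That fit therefore cannot separate muscle from treatment. In bulk tissue such as this, fewer cells of a type and less RNA per cell cannot be told apart.

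Promoter sequences are shown for the genes at which open chromatin can be read against an annotated start. RefSeq windows on GRCm38.p6 (the assembly of mm10), from 250 bases before to 50 bases after a start, matched 7 of the 9 genes (all but Oprk1 and Dagla), with 14 windows. Each line runs 5′ to 3′ on the gene's strand. Capitals mark the GC box GGGCGG and the E-box CACGTG, searched on both strands, which did not overlap in these windows. The first pair shows starts of Oprm1 that differ in open chromatin, and the others are a selection from the receptor and enzyme promoters with a region in both lists.
Oprm1, upstream start, plus strand, chr10:6758343-6758642: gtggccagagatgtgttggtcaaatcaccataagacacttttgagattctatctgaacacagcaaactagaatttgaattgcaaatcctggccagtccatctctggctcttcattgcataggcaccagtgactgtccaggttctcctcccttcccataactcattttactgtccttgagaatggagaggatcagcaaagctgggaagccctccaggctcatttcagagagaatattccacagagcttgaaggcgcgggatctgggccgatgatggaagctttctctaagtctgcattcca
Oprm1, first downstream start, plus strand, chr10:6788320-6788619: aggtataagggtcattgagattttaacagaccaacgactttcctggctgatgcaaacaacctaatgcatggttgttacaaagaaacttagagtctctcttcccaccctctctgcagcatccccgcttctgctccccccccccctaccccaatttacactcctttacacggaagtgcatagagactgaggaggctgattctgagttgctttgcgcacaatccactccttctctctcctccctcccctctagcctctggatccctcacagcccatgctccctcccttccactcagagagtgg
Oprd1, minus strand, chr4:132144437-132144736: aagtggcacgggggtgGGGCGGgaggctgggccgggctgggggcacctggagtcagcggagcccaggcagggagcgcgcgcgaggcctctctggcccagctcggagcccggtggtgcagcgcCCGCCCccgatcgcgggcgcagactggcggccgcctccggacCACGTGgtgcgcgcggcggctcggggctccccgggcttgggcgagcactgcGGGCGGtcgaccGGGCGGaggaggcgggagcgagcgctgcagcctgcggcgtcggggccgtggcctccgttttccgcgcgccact
Cnr1, first start, plus strand, chr4:33924014-33924313: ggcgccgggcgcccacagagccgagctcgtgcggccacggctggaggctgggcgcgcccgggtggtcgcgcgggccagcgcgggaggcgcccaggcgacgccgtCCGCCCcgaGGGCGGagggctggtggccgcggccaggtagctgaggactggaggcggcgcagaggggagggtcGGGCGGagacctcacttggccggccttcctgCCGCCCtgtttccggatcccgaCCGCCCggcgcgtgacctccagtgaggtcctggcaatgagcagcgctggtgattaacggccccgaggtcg
Mgll, first start, plus strand, chr6:88724162-88724461: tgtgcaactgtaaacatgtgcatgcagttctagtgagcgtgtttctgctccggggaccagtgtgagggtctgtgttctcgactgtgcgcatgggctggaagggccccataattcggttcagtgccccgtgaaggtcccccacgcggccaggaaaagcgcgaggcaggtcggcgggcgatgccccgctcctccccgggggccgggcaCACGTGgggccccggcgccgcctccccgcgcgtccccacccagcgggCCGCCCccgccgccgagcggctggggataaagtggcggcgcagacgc
Daglb, plus strand, chr5:143464243-143464542: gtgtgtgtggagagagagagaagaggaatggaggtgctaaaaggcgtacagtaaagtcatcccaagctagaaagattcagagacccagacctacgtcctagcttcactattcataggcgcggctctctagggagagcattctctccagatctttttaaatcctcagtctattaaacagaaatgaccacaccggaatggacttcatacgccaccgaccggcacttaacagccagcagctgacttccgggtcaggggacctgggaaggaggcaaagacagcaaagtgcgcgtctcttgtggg

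The windows fell on both sides of the typical promoter in base composition. G and C made up 79.3% of the Oprd1 window, 76.3% of the first Cnr1 window and 70.0% of the first Mgll window, at percentiles 97.7, 94.8 and 82.9 of 14800 windows of tested genes. The 2 Oprm1 windows shown had 47.3% and 52.0% (percentiles 10.3 and 20.8), the Daglb window had 51.0% (18.1), and the 3 windows of Oprl1 lay between 47.7% and 53.7% (10.8 to 26.1). The GC box was found 5 times in the first Cnr1 window and 4 times in the Oprd1 window, and in none of the Oprm1, Oprl1 and Daglb windows. It occurs in 58.7% of all windows. The E-box, present in 9.27% of all windows, was found once each in the Oprd1 window, the first Mgll window and the second of 3 Cnr1 windows. Neither the cyclic AMP response element TGACGTCA (2.77% of all windows) nor the AP-1 site TGANTCA (5.50%) was found in any of the 14 windows, and TATAAA (7.81%) was found in 1 window, of Oprl1. These matches describe the letters of the windows and not the binding of any factor.

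The RNA comparison asked whether transcripts of the opioid and cannabinoid system differed between injured ganglia of MS275 and vehicle mice. None of the 9 genes was called in either direction. With edgeR's quasi-likelihood test over 16819 genes and a Benjamini-Hochberg adjusted p under 0.05 as the threshold, 11.0% of all tested genes were called, 5.10% as higher and 5.89% as lower. All 9 genes passed the filter on low counts. Of the 9, 0 had an unadjusted p under 0.05. The smallest in the edgeR test was 0.0729 (Mgll, adjusted p = 0.218), at rank 5628 of the 16819 tested genes by p. DESeq2 and limma voom also called 0 of the 9. Point estimates were above 0 for 4 genes and below 0 for 5, with a median log2 fold change of -0.01, against 0.00 over all tested genes.

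Oprm1 encodes the mu receptor, the main target of morphine. Its level was 5.16, 8.68 and 6.92 CPM in MS275 replicates 1, 2 and 3, and 9.06, 7.73 and 6.58 CPM in vehicle replicates 1, 2 and 3. The groups overlapped, and the lowest library of all was MS275 replicate 1, the one with the most muscle signal. The log2 fold change was -0.17 (SE 0.18, edgeR adjusted p = 0.583), with a 95% interval from 67.0% to 118% of the vehicle level. It turned to 0.01 without MS275 replicate 1 and was -0.37 without MS275 replicate 2 (adjusted p = 0.964 and 0.152), so its direction depended on single libraries. Library-to-library spread in MS275 was 25.4% of the mean, where counting error alone, at 239 to 477 reads, comes to 4.58% to 6.47%.

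Oprd1, the gene of the delta receptor that binds enkephalins, had 12.5, 15.0 and 13.6 CPM in the MS275 libraries and 15.0, 13.1 and 14.1 CPM in the vehicle libraries. The ranges lay on top of each other. Its log2 fold change was -0.03 (SE 0.09, adjusted p = 0.830), with an interval from 85.1% to 112% of vehicle. Oprk1, for the kappa receptor that binds dynorphins, had the fewest reads of the 9, 69 to 126 per library. Its levels were 2.11, 2.07 and 2.35 CPM with MS275 and 2.52, 2.06 and 1.74 CPM with vehicle, and the 3 MS275 values fell inside the vehicle range (log2 fold change 0.04, SE 0.17, adjusted p = 0.902). The 95% interval ran from 78.7% to 135% of the vehicle level.

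Oprl1 encodes the receptor for nociceptin, an opioid-like peptide. It had 20.5, 21.0 and 22.8 CPM in the MS275 libraries, against 19.1, 20.6 and 19.8 CPM in the vehicle libraries. MS275 replicate 1 lay below vehicle replicate 2, so the groups overlapped by that pair. The log2 fold change was 0.11 (SE 0.07, adjusted p = 0.330), and the interval was 96.9% to 120% of vehicle.

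Cnr1 was the most even of the 9 genes across libraries. It had 39.0, 38.4 and 38.8 CPM with MS275 and 38.2, 39.9 and 38.5 CPM with vehicle. Spreads were 0.754% and 2.37% of the mean in MS275 and vehicle, no larger than counting error alone, which comes to 2.03% to 2.73%. The MS275 values lay wholly within the vehicle range. Its log2 fold change was -0.01 (SE 0.05, adjusted p = 0.956), and the 95% interval allowed 92.8% to 107% of the vehicle level, the narrowest of the 9.

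Among the enzymes, Mgll came nearest to the threshold. It had 146, 130 and 142 CPM in MS275 replicates 1, 2 and 3, against 132, 124 and 132 CPM in the vehicle libraries. Only MS275 replicate 2 fell among the vehicle values. The log2 fold change was 0.11 (SE 0.05, adjusted p = 0.218), with an interval from 99.2% to 117% of vehicle. Without MS275 replicate 2 it was called higher, at 0.16 (adjusted p = 0.0416). Adipocytes also make this lipase, and markers of adipocytes and muscle were higher with MS275 in part or all of their lists. The 5 adipocyte markers summed to 25.2, 13.4 and 16.9 CPM in MS275 replicates 1, 2 and 3 and 10.7, 10.5 and 11.3 CPM in vehicle, with Adipoq at 0.311 to 0.982 CPM in all 6. With the summed muscle level as a covariate the Mgll estimate was -0.0020 (SE 0.08, edgeR adjusted p = 0.996). That sum was 97.6 to 666 CPM with MS275 and 7.45 to 59.4 CPM with vehicle, so the fit cannot separate muscle from treatment. It called 13 of all 16819 genes higher and 4 lower. The part of these tissues in the Mgll values was not tested.

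Faah had 21.1, 22.4 and 24.7 CPM in the MS275 libraries and 22.0, 21.4 and 20.7 CPM in the vehicle libraries. MS275 replicate 1 lay within the vehicle range and the other 2 above it (log2 fold change 0.09, SE 0.07, adjusted p = 0.457, log2 interval -0.07 to 0.25).

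Dagla encodes the main synthetic lipase of neurons. It had 31.6, 36.4 and 35.9 CPM with MS275 and 35.5, 37.5 and 35.7 CPM with vehicle, and MS275 replicate 1 was again the lowest of the 6. Its log2 fold change was -0.07 (SE 0.06, adjusted p = 0.541, interval 86.5% to 106% of vehicle), and it was 0.00 without that library. Daglb, the lipase studied mostly in macrophages and microglia, had 19.2, 18.5 and 19.1 CPM with MS275, against 21.2, 19.5 and 20.5 CPM with vehicle. Every MS275 value was below every vehicle value. Groups did not overlap, in either direction, for 1 of the 9 genes and for 33.8% of all tested genes. The log2 fold change of -0.11 (SE 0.06, adjusted p = 0.304, interval 84.3% to 103% of vehicle) did not pass. Macrophage markers were 0 of 5 called, and their sum ran from 40.9 to 50.2 CPM with MS275 and from 39.2 to 41.7 CPM with vehicle.

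**Figure D1:**
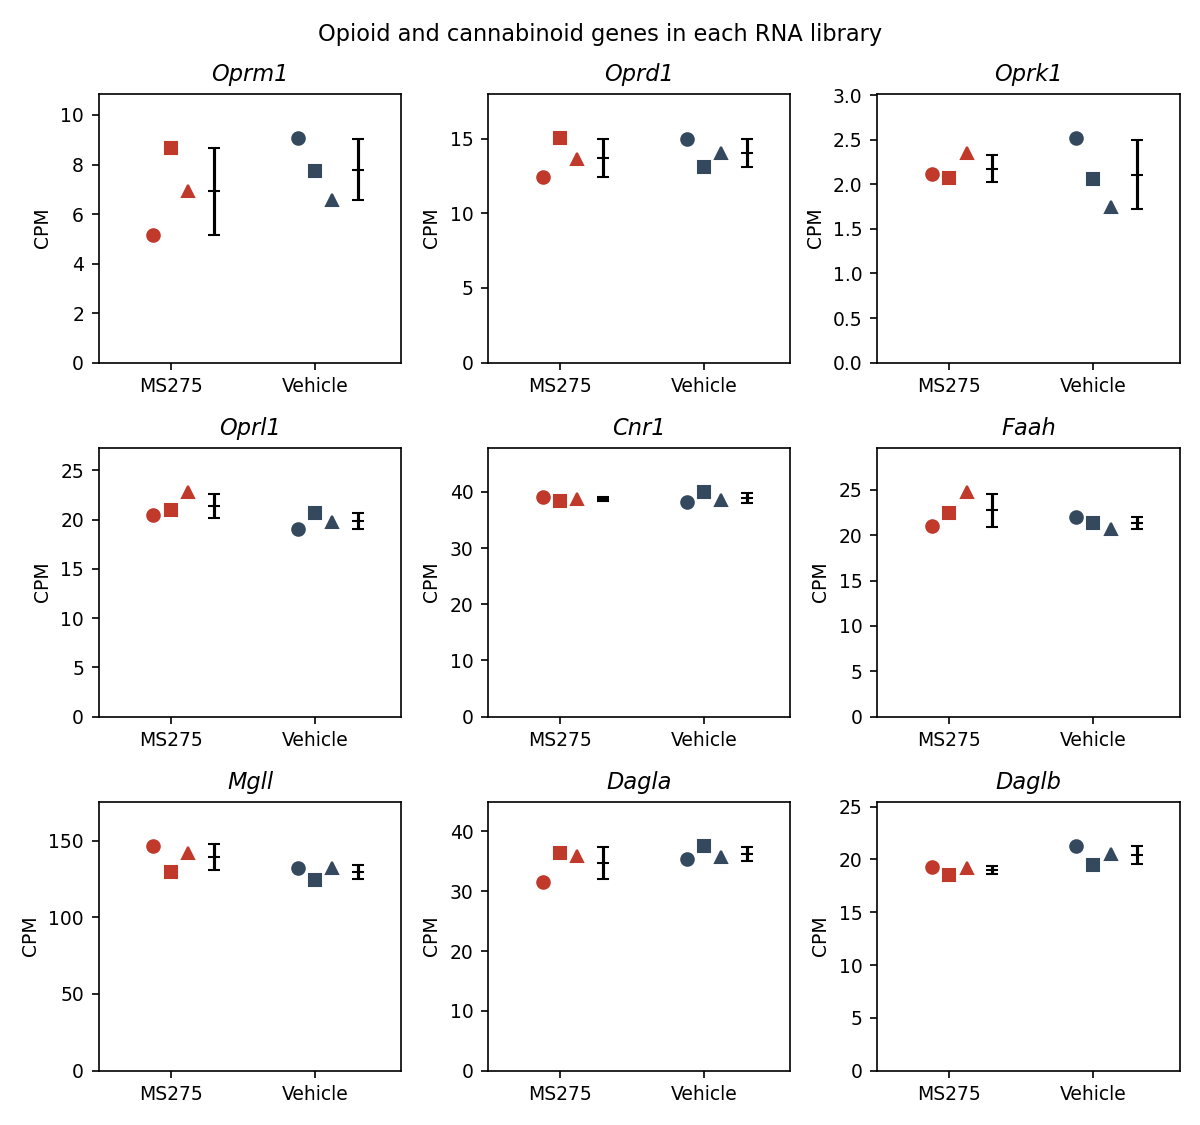
Level of each gene in CPM (vertical axis, from 0, scaled per panel) in the 3 MS275 libraries (red) and the 3 vehicle libraries (dark blue), with circles, squares and triangles for replicates 1, 2 and 3 and black bars for the mean and SD. The Daglb groups do not overlap, and the widest spread relative to its mean is that of Oprm1 with MS275, from 5.16 to 8.68 CPM.

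The intervals bound what the data allow. For 9 of 9 genes the 95% interval of the difference lay inside 1.5-fold in either direction, a limit chosen after the values were seen; 70.8% of all tested genes met it. The lower bound for Oprm1, 67.0%, came closest to that limit. An adjusted p above the threshold does not show that levels were alike, and smaller differences inside each interval remain possible. The coefficient of variation was larger in MS275 than in vehicle for 6 of the 9 genes, as for 68.6% of all tested genes. CPM were not compared between genes, because transcript lengths were not used here.

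**Figure D2:**
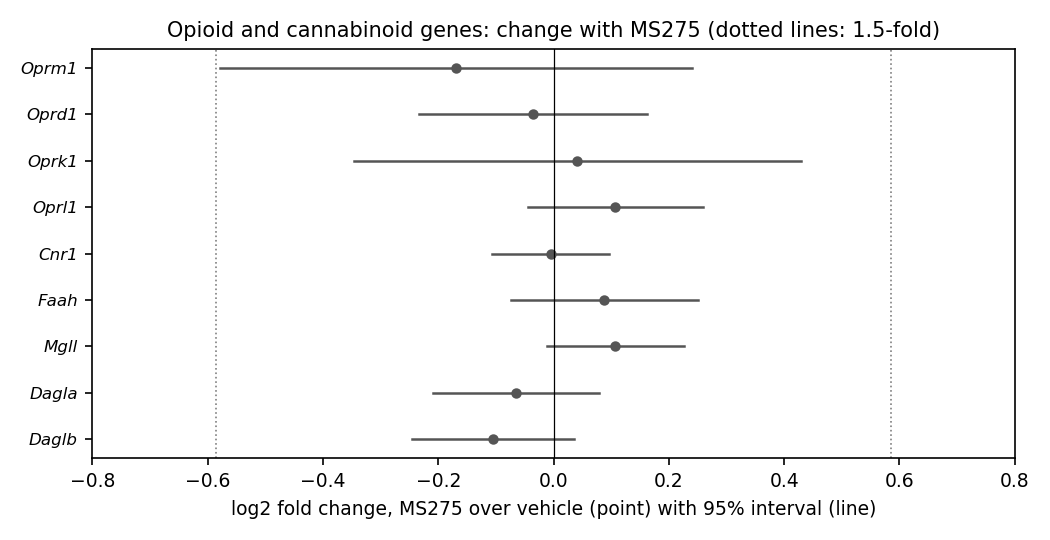
Log2 fold change of MS275 over vehicle (horizontal axis) for the 9 genes, with the 95% interval from the edgeR fit as a line and 1.5-fold as dotted lines. All 9 intervals include 0, and the Cnr1 interval is the narrowest.

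Of 37 further genes of the same pathways, in 3 lists, 34 were tested. Of these 3 were higher and 1 lower, or 11.8%, near the 11.0% of all tested genes, and their median log2 fold change was 0.02. Among 8 genes for opioid peptides and their processing, 7 were tested, 1 rose and 0 fell (median 0.07). The gene that rose was Cpe, carboxypeptidase E, which trims neuropeptide precursors. It had 893, 840 and 882 CPM with MS275, against 774, 773 and 790 CPM with vehicle. The groups did not overlap, as for 33.8% of all tested genes (log2 fold change 0.16, SE 0.04, edgeR adjusted p = 0.0312). Penk, the enkephalin precursor, had 22.3, 12.7 and 10.5 CPM with MS275 and 12.7, 12.3 and 16.6 CPM with vehicle, the highest value being that of MS275 replicate 1 (0.14, SE 0.24, adjusted p = 0.744). Pdyn and Pomc, the precursors of dynorphins and of beta-endorphin, were near the limit of detection, at 6 to 21 and 23 to 43 reads per library. Neither passed (log2 fold change -0.52 and 0.51, edgeR adjusted p = 0.502 and 0.248). The Pdyn groups overlapped and the Pomc groups did not, which held for 33.8% of all tested genes.

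Among 11 other genes of the cannabinoid system, 10 were tested, 1 rose and 0 fell (median 0.05). Gde1, a phosphodiesterase in one route to anandamide, rose to 206, 217 and 218 CPM with MS275, against 187, 193 and 187 CPM with vehicle (0.18, SE 0.04, adjusted p = 0.0275). Cnr2, the CB2 receptor gene of immune cells, had 5 to 32 reads per library, and its estimate spanned an interval from -1.14 to 1.47 on the log2 scale (0.17, adjusted p = 0.880). 2 more genes came close and did not pass, both with no overlap between groups, which held for 33.8% of all tested genes. They were Sgip1 and Abhd4. Sgip1 encodes a partner of the CB1 receptor (-0.18, edgeR adjusted p = 0.0532). Abhd4 encodes a lipase in the same route to anandamide as Gde1 (-0.17, edgeR adjusted p = 0.0735). Napepld, Abhd6 and Abhd12 of this list, with estimates above 0 (0.19, 0.10 and 0.07), also had no overlap and were not called.

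Among 18 genes of Gi/o signalling, 17 were tested, 1 rose and 1 fell (median 0.01). Cacna1b, the pore of the N-type calcium channel through which these receptors reduce transmitter release, fell to 112, 133 and 116 CPM with MS275, against 147, 147 and 143 CPM with vehicle (-0.27, SE 0.06, adjusted p = 0.0267). Rgs4, which speeds the shut-off of Gi/o proteins, rose to 1411, 1312 and 1341 CPM with MS275, against 1201, 1094 and 1148 CPM with vehicle (0.24, SE 0.05, adjusted p = 0.0159). Arrb2 of this list came close and did not pass (0.21, edgeR adjusted p = 0.0708). The 4 calls were small, and their number changed with the libraries used. With 1 library left out the count of higher genes ran from 0 to 3 and that of lower genes from 0 to 3. All tested genes then gave 127 to 1388 higher and 134 to 1375 lower, against 858 and 991 with all libraries. Estimates with 1 library left out were 0.20 to 0.28 for Rgs4 and 0.15 to 0.19 for Cpe. They were 0.17 to 0.21 for Gde1 and -0.35 to -0.22 for Cacna1b. Without vehicle replicate 2 or 3, 0 were called, and without MS275 replicate 3 or vehicle replicate 1 the sole call was Rgs4. With the summed muscle level as a covariate 0 were called, in a fit that called 13 of all 16819 genes higher and 4 lower. With the pan-neuronal reads as library size 0 were higher and 4 lower, Cacna1b among them, where 462 of all genes were higher and 2387 lower. In the same libraries 2 of 7 nociceptor markers were higher, Calca (0.19) and Tac1 (0.38), as were 2 of 6 markers of large-diameter neurons, Pvalb (0.28) and Calb1 (0.26), and the others of both lists were not called. The part of these cells in the pathway calls was not tested.

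**Figure D3:**
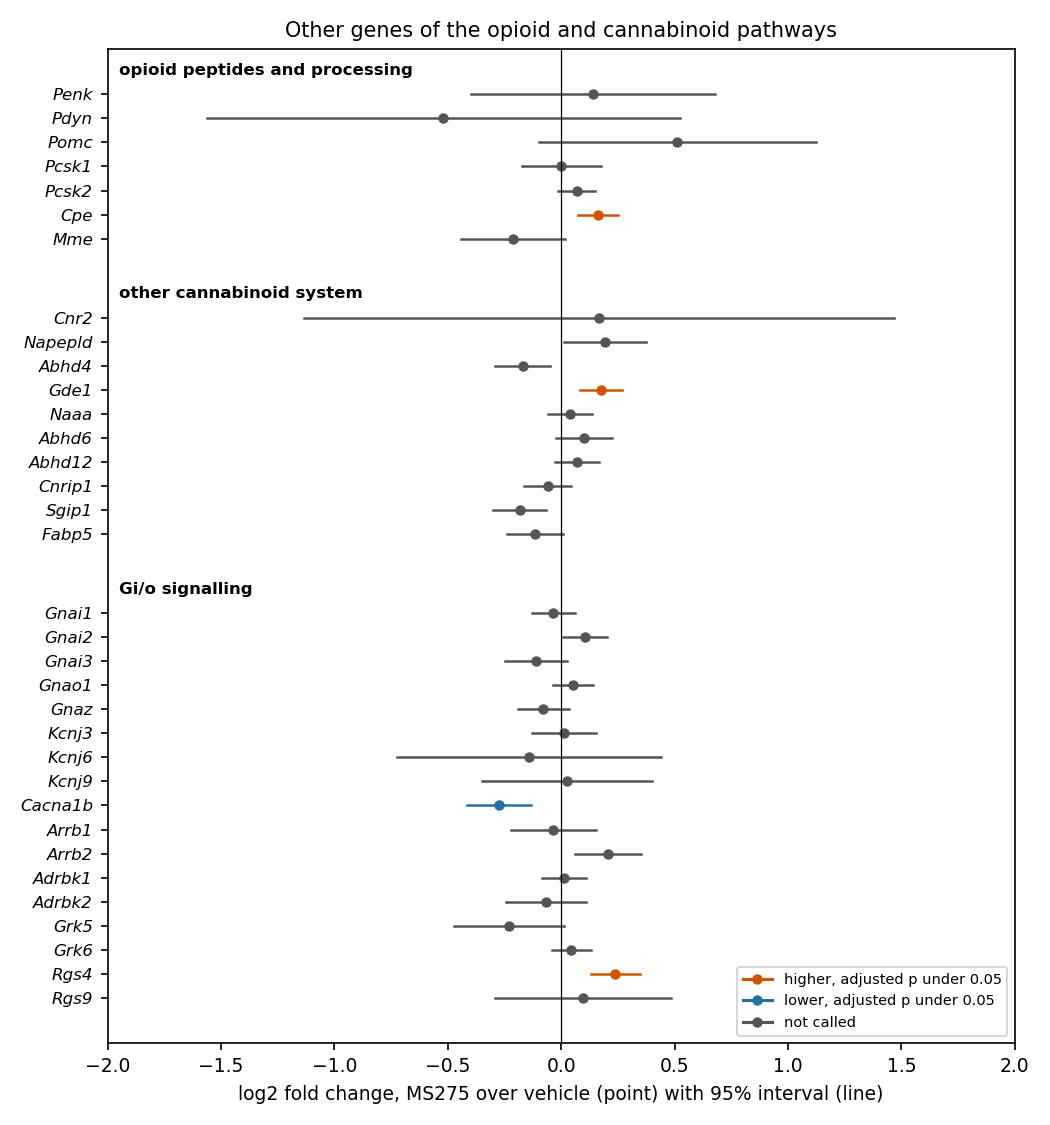
Log2 fold change of MS275 over vehicle (horizontal axis) with its 95% interval for the 34 tested genes of 3 pathway lists, in orange where higher, blue where lower and grey where not called. The called genes are Cpe, Gde1 and Rgs4 (higher) and Cacna1b (lower), all between -0.27 and 0.24.

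The ATAC comparison asked whether the same regions at these genes were found open in MS275 and vehicle ganglia. Of the 7 genes with promoter windows, 7 had a region at 1 or more of them in the MS275 list and 7 in the vehicle list, where 86.9% and 88.0% of 11578 tested genes with windows did, and 84.9% did in both. The lists pool replicates, so they give no replicate error and no test, and the depth behind them is unknown. Fold enrichment and q-values below are those of the authors' peak caller, and rank regions within a list only.

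The strongest region at any of the 9 genes was that over the Daglb promoter printed above. It spanned chr5:143464385-143465010 in the MS275 list, with a fold enrichment of 4.36 and a -log10 q of 38.3, and chr5:143464139-143465059 in the vehicle list, with 3.55 and 33.6. The widest was at Cnr1, chr4:33923240-33925383 in the MS275 list (2144 bp, fold enrichment 3.02) and chr4:33923099-33925378 in the vehicle list (2280 bp, 2.83). It covered the first 2 annotated starts of Cnr1, whereas the third had no region in either list. At Mgll the promoter region was chr6:88723953-88725117 in the MS275 list (2.44) and chr6:88723989-88725182 in the vehicle list (2.90), and at Faah the fold enrichment was 2.83 and 2.97 in the MS275 and vehicle lists.

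The opioid receptor promoters had weaker regions. At Oprd1 the region over the start had a fold enrichment of 1.96 in the MS275 list and 2.20 in the vehicle list. At Oprm1 the upstream start, where the annotated gene begins, had no region in either list. The 2 downstream starts, next to each other, lay in a region of both lists, chr10:6788517-6789185 in the MS275 list (1.85) and chr10:6788251-6789248 in the vehicle list (2.38). At Oprl1 the MS275 region (1.59) reached 1 of the 3 windows and the vehicle region (1.83) all 3. Oprk1 and Dagla were read by their ends. Near the low-coordinate end of Oprk1 the lists shared a weak region, chr1:5588703-5589416 in the MS275 list (fold enrichment 1.72) and chr1:5588671-5589009 in the vehicle list (1.56). Beside it the MS275 list had a region of its own over that end, chr1:5588287-5588575, at a -log10 q of 6.49. The vehicle list had one of its own further inside, chr1:5591609-5591908, at 6.21, and a weak one before the gene. Dagla had a region at its high-coordinate end in both lists, with fold enrichments of 2.68 and 2.60 in the MS275 and vehicle lists.

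For the 7 genes with windows, 7 of 7 regions at a window were in both lists, from either side. Away from the windows, 26 of 46 regions of the MS275 list were also in the vehicle list, and 25 of 63 of the vehicle list were also in the MS275 list. Over all 9 genes, 67.1% of MS275 regions were found in the vehicle list (49 of 73, Wilson 95% interval 55.7% to 76.8%), against 57.1% of all regions at protein-coding genes, and 47.3% of vehicle regions were found in the MS275 list (44 of 93, 37.5% to 57.4%), against 49.3%. Both backgrounds lay within those intervals, which cover counting error only. They also treat regions of the same gene as independent, though Mgll and Dagla had 20 and 18 of the 73 MS275 regions. When a match needed 50% reciprocal overlap, 42.5% of MS275 regions were found in the vehicle list, against 41.8% of regions at protein-coding genes, and 33.3% of vehicle regions in the MS275 list, against 36.5%. At a -log10 q of at least 5, the counts were 11 in the MS275 list and 24 in the vehicle list (15.1% and 25.8% of the regions), where all genic regions had 22.3% and 26.4%.

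Mgll, a gene of 103.9 kb, had the most regions, 20 in the MS275 list and 31 in the vehicle list, of which 2 and 10 reached a -log10 q of 5. One of those 10, starting 35301 bp from the low-coordinate end, was in both lists, at chr6:88759683-88760366 with a -log10 q of 2.69 in the MS275 list and at chr6:88759713-88760443 with 17.1 in the vehicle list. Oprm1, the longest gene at 279.6 kb, had 9 and 10 regions in the MS275 and vehicle lists, 4 of each in the other list, and 0 and 4 of them reached that level. Dagla had 18 and 20, with 5 and 3 at that level, the reverse order. Oprd1 had 3 and 9, Oprl1 4 and 4, Cnr1 3 and 1, Faah 4 and 5, Oprk1 2 and 3, and Daglb 10 and 10 in the MS275 and vehicle lists. The vehicle list was longer in all, so counts per list are not a measure of opening or closing. Oprm1, Oprd1, Mgll and Dagla overlap other annotated genes (Ipcef1, n-TAcgc3, Gm26588 and Gm30042), and their regions and reads are uncertain to that extent.

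**Figure D4:**
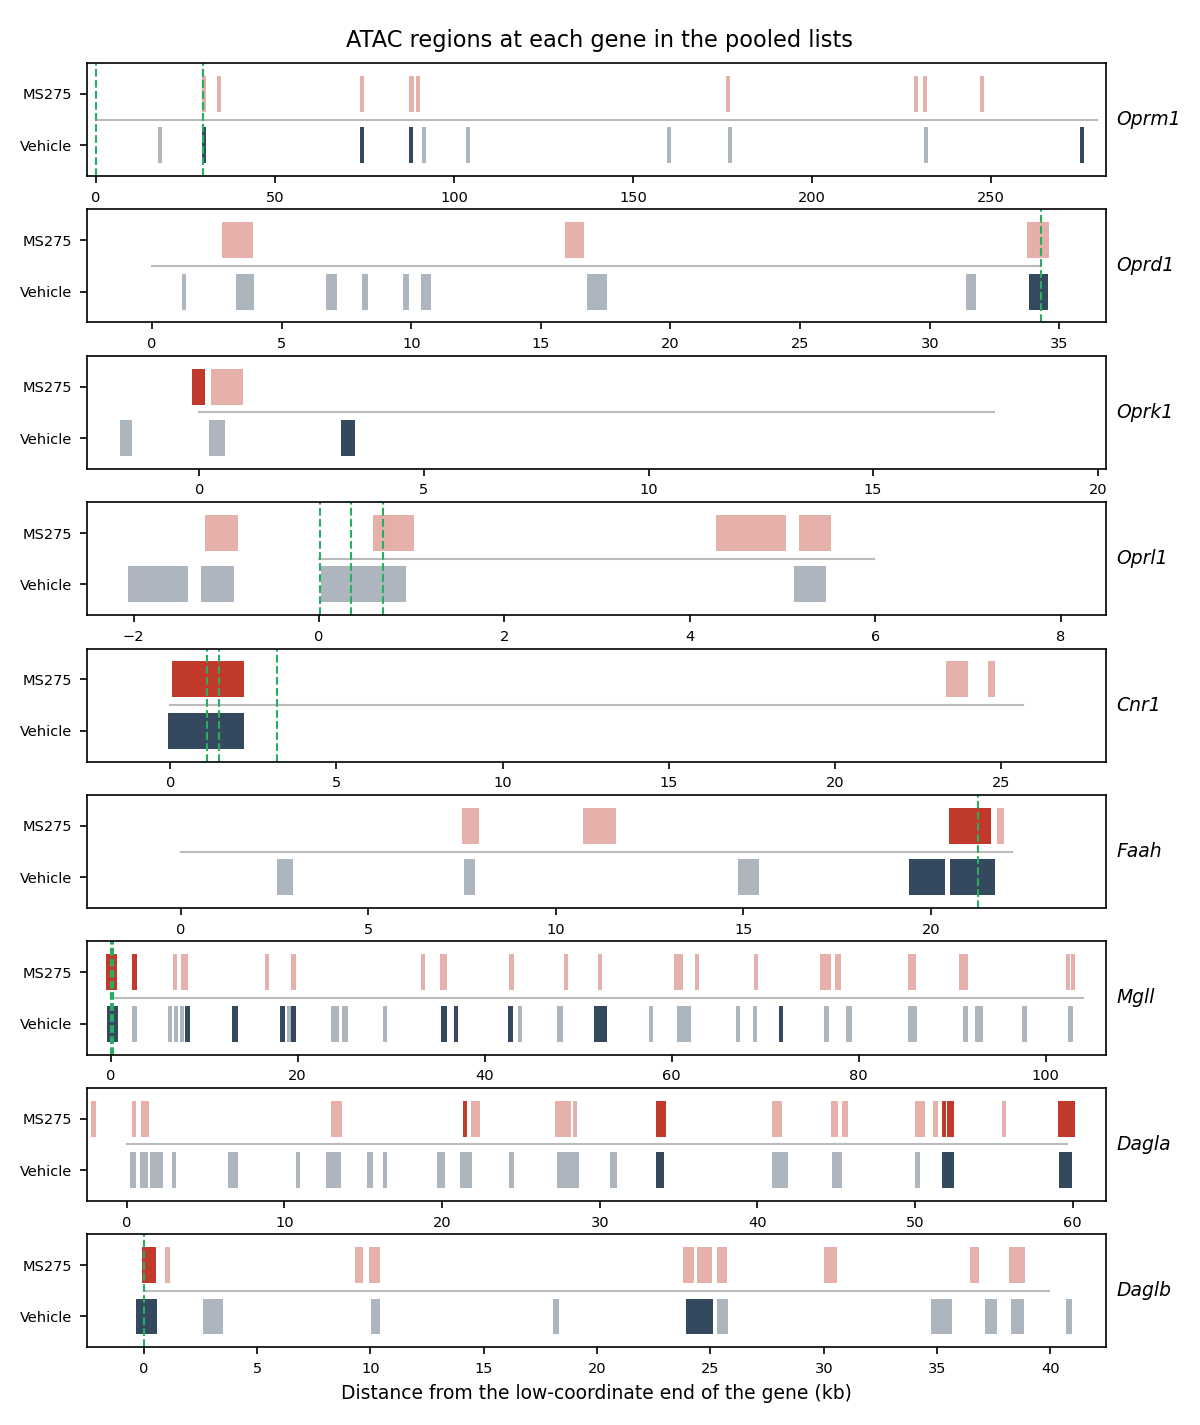
Regions of the MS275 list (red, upper row) and the vehicle list (dark blue, lower row) at each gene, by distance from the gene's low-coordinate end in kb (horizontal axis, scaled per gene). Grey lines are the genes, green dashed lines annotated starts, and full colour marks a -log10 q of at least 5. Paired regions stand at the starts of Faah, Mgll and Daglb, at the first 2 starts of Cnr1, at the start of Oprd1, at the third start of Oprl1 and at the 2 downstream starts of Oprm1, while most others are pale.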

How the data were processed

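The deposited RNA files hold raw read counts per gene symbol. The deposited ATAC files are peak lists, 1 per treatment, named as combined replicates; per the file layout and values, the authors' columns used here are a score (10 times the -log10 p-value, capped), a fold enrichment ratio, the -log10 q-value and a summit offset. The submitters' processing notes name mm10 and, with no role given, FastQC 0.10.1, STAR 2.7.0, R 3.5.0, limma 3.38.3 and edgeR 3.24.3. For the counter, its strand setting and the peak caller, names were not given in the sources used here. Per the labels' protocols, poly(A) libraries were strand-specific and sequenced in pairs.

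The 5 rows that name no gene (18.9% to 20.6% of a library) stayed out. The test of the counts was edgeR's quasi-likelihood test (version 4.0.16, R 4.3.3; TMM, filterByExpr, 2-sided, treatment as the only term, 16819 of 44345 genes, common biological coefficient of variation 8.62%). CPM use normalised library sizes, SE is the log2 fold change over the square root of F, and intervals use its degrees of freedom. The fit was tested on simulated data. DESeq2 1.42.0, limma voom (3.58.1) and other settings were alternatives. Groups come from the sample titles. The design text calls the triplicates biological. The genes and lists were chosen with earlier results of these data known. Named genes were all 9, and in each pathway list up to 4 called genes. Penk, Pdyn, Pomc, Cnr2, Sgip1, Abhd4, Napepld, Abhd6, Abhd12 and Arrb2 were added after their values were seen. The rule for genes of like pattern applied to called members and so named none.

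Overlapping peak entries (246602 in the MS275 list, 277369 in the vehicle list) were merged per list; regions sharing 1 bp counted as found in both. Gene coordinates and promoter windows came from RefSeq tables of GRCm38.p6.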

Additional observations from a re-analysis of the deposited data

How the results depend on the processing

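The counts of 0 higher and 0 lower opioid and cannabinoid genes held under the other normalisation, no filter, DESeq2, limma voom and pan-neuronal reads as library size (added after the data were seen; median of all genes -0.09, with 462 higher and 2387 lower). The muscle covariate also gave 0 and 0, which says nothing on stability, since it called 13 of all 16819 genes higher and 4 lower. With 1 library left out, higher genes ran from 0 to 1 and lower genes from 0 to 0; the 1 was Mgll. Signs of uncalled estimates turned: Oprm1 was 0.36, Oprd1 0.062, Cnr1 0.0079, Dagla 0.090 and Mgll -0.0020 with the muscle covariate; Oprk1 was -0.052 and Faah -0.0050 with pan-neuronal scaling. Left-out libraries gave Oprm1 -0.37 to 0.014, Oprd1 -0.10 to 0.037, Oprk1 -0.073 to 0.19, Cnr1 -0.014 to 0.015 and Dagla -0.10 to 0.00060.

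The pathway genes, 3 higher and 1 lower, became 0 and 0 with the muscle covariate, where all genes gave 13 and 4. They became 0 and 4 with pan-neuronal scaling (Cacna1b, Abhd4, Sgip1 and Gnaz), where all genes gave 462 and 2387. With no filter or DESeq2 they were 4 higher (Arrb2 added) and 3 lower (Abhd4 and Sgip1 added). All genes then gave 1226 and 1151 higher and 1171 and 1145 lower. Leaving out 1 library gave 0 to 3 higher and 0 to 3 lower, where all genes gave 127 to 1388 higher and 134 to 1375 lower. The replicate block gave 3 lower pathway genes and no call among the 9, where all genes gave 981 higher and 1107 lower. Same-numbered libraries had correlations of deviations of 0.02, 0.11 and -0.06, and 1 of 3 MS275 libraries correlated best with its own number, so the numbers were not taken as pairs.

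At a -log10 q of at least 5, regions fell to 11 in the MS275 list and 24 in the vehicle list. With 50% reciprocal overlap, 42.5% of the MS275 regions were in the vehicle list (41.8% at protein-coding genes). Gene bodies alone, 10 kb windows and equal list sizes gave 71 to 80 and 89 to 106 regions. The causes were not tested. Few reads limit Pdyn, Pomc, Cnr2 and Kcnj6 among the tested pathway genes; Pnoc, Gpr55 and Kcnj5 had too few to be tested.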
